A study of Mus musculus with 15 samples.

Results

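The nuclear genome codes for most subunits of the 5 complexes of oxidative phosphorylation, and their mRNAs were followed here in cultured mouse muscle satellite cells, the stem cells of skeletal muscle, after treatment with adenosine or adenosine monophosphate (AMP). Members were taken by name: every gene symbol that begins as a subunit of complex I (Nduf followed by a, b, c, s or v and a number), complex III (Uqcr), complex IV (Cox4 to Cox8 followed by a, b or c) or complex V (Atp5), and the 4 genes Sdha to Sdhd of complex II. Assembly factors and names ending in -ps were left out, which removed 6 names. The rule found 84 members among the 27573 genes of the first table and 76 among the 13063 named genes of the second. Of the 84, 40 belong to complex I, 4 to complex II, 8 to complex III, 15 to complex IV and 17 to complex V. In the second table complex I has 36 members and complex IV has 11, and the other complexes are complete.

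The cells came from hindlimb muscle and grew in F10 medium with horse serum. In batch 1, 3 libraries had been treated with 0.05 mM adenosine and 3 with DMSO, the vehicle. In batch 2, 3 libraries had been treated with 0.1 mM adenosine, 3 with 0.25 mM AMP and 3 with DMSO, and the labels name the strain C57BL/6J for this batch. Treatment lasted 24 h in all groups, and the age of the mice is not given in the sources used here. Dose and batch change together, so an effect of dose cannot be told apart from one of batch. Each group is 1 triplicate, and the labels do not say whether its libraries came from separate animals or cultures, so p-values measure the spread between libraries, which may be technical. Libraries were made by Smart-seq2, which amplifies full-length cDNA and keeps no record of strand.

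Oxidative phosphorylation passes electrons from NADH and succinate along the inner mitochondrial membrane to oxygen. Complex I (NADH dehydrogenase), complex III (cytochrome bc1) and complex IV (cytochrome c oxidase) pump protons, complex II (succinate dehydrogenase) feeds electrons in from the citric acid cycle, and complex V (ATP synthase) makes ATP as the protons flow back. Each complex other than complex II also holds subunits coded by mitochondrial DNA, so the nuclear mRNAs followed here give only part of its makeup. Satellite cells rest with few mitochondria and add respiratory capacity when they enter the cell cycle and differentiate.

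Total counts were between 14683346 and 20799588 per library in batch 1 and between 11107450 and 14201933 in batch 2. The cells carried satellite cell and myoblast mRNAs, with Myod1, the myogenic transcription factor, at 944 to 1389 CPM (counts scaled to the library total) in batch 1 adenosine libraries, against 2640 to 2879 CPM in batch 1 DMSO libraries. The summed CPM of the 8 satellite cell and myoblast markers was 2331 to 3137 with adenosine and 6449 to 6960 with DMSO in batch 1. In batch 2 it was 1930 to 2493 with adenosine, 2446 to 3080 with AMP and 4934 to 5457 with DMSO. Not all 8 fell. Pax7 had 55.6 to 63.9 CPM with adenosine and 55.2 to 64.9 CPM with DMSO in batch 1. It was higher in batch 2, at 61.8 to 69.1 CPM with adenosine and 68.2 to 83.4 CPM with AMP, against 38.4 to 46.2 CPM with DMSO. Myf5 with AMP, at 156 to 179 CPM, overlapped its DMSO range of 139 to 177 CPM. The 6 smooth muscle and pericyte markers summed to 35.4 to 82.1 CPM with adenosine and 296 to 696 CPM with DMSO in batch 1. There 4 of them passed 1 CPM. Most of the sum was Acta2, at 21.7 to 58.8 and 209 to 559 CPM, and Tagln, at 9.77 to 20.9 and 82.8 to 146 CPM. Myh11 reached at most 0.749 and 0.798 CPM, and Rgs5 0.186 and 0.465 CPM. In batch 2, 3 of the 6 smooth muscle and pericyte markers were in the table. They summed to 31.7 to 67.2 CPM with adenosine, 91.5 to 236 CPM with AMP and 278 to 478 CPM with DMSO. Of the 5 leukocyte markers in the batch 1 table, Cd68 alone passed a mean of 1 CPM, the sum was 11.6 to 18.05 CPM with adenosine and 1.2 to 2.96 CPM with DMSO, and Ptprc, the defining one, was at 0.186 to 1.23 CPM with adenosine and at 0 to 0.0617 CPM with DMSO in batch 1. The 5 endothelial markers summed to 18.5 to 23.9 CPM with adenosine and 5.1 to 6.85 CPM with DMSO in batch 1, most of it from Tek. In batch 2, Cd68 was the only leukocyte marker in the table, at 10.7 to 13.2 CPM with adenosine, 10.7 to 14.1 CPM with AMP and 1.57 to 3.1 CPM with DMSO. The 2 endothelial markers in that table summed to 9.15 to 10.3 CPM with adenosine, 9.24 to 12.7 CPM with AMP and 2.0 to 5.26 CPM with DMSO. The 5 fibro-adipogenic markers summed to 307 to 385 CPM with adenosine and 332 to 432 CPM with DMSO in batch 1. Most of it was Cd34, at 239 to 243 and 231 to 298 CPM, and Gsn, at 65.0 to 137 and 98.2 to 133 CPM. Pdgfra was at 0.651 to 1.30 CPM with adenosine and 0 to 0.802 CPM with DMSO. Ly6a reached at most 1.30 CPM and Dcn 4.66 CPM, both with adenosine. The 8 myofibre markers summed to 1.24 to 10.6 CPM with adenosine and 14.5 to 37.4 CPM with DMSO in batch 1. The part that these shifts play in the values below was not tested. In bulk libraries, fewer cells of a type and less RNA per cell cannot be told apart. Without strand, reads over bases shared with a gene on the other strand cannot be assigned, and 28 of the 84 members share exon bases with another gene. Among members named below they include Ndufa11, Ndufa13, Ndufa3, Ndufs1, Ndufs6, Ndufb2, Ndufb8, Ndufb9, Uqcrc2, Cox5a, Cox6c, Atp5a1, Atp5d and Atp5g2, and not Ndufa8, Ndufa6, Ndufb10, Ndufs8, Ndufs4, Cox7a2l, Atp5g3, Sdhb or Sdhd.

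As a group the members were abundant in every library. Their median level was 98.0 FPKM (fragments per kilobase of transcript, scaled to the depth of the library) with adenosine and 105 FPKM with DMSO in batch 1, and 94.6 FPKM with adenosine, 88.3 FPKM with AMP and 101 FPKM with DMSO in batch 2. In DMSO libraries, Cox8a had the highest level per length, 635 ± 77.8 FPKM in batch 1 and 750 ± 101 FPKM in batch 2 (SD, n = 3 each). Cox6b1 had 535 ± 43.6 and 637 ± 17.9 FPKM in the same groups, and Ndufa4 had 513 ± 32.4 and 558 ± 14.6 FPKM. Cox8a and Cox6b1 code for small subunits of cytochrome c oxidase, and Ndufa4, named for complex I, codes for a protein now also counted as a cytochrome c oxidase subunit. In DMSO libraries the ranges of Cox6b1 and Ndufa4 overlapped in batch 1 and those of Cox8a and Cox6b1 in batch 2, and the order was not tested. The catalytic beta subunit of ATP synthase, Atp5b, stood at 457 ± 31.7 and 499 ± 13.3 FPKM in the DMSO groups.

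At the low end were isoforms that adult muscle or other tissues use. Cox6a2, the heart and muscle form of subunit 6a, had 0, 2 and 5 counts with adenosine and 9, 3 and 10 counts with DMSO in batch 1, against Cox6a1 levels of 337 ± 78.8 FPKM with adenosine and 334 ± 54.3 FPKM with DMSO. Cox8b, the muscle form of subunit 8, had 0, 1 and 1 counts with adenosine and 0 in all 3 DMSO libraries. Cox7a1, the muscle form of subunit 7a, had 18, 12 and 15 counts with adenosine and 7, 6 and 14 with DMSO, and its groups overlapped. Ndufa4l2, a relative of Ndufa4 induced by low oxygen in other cells, had 0, 2 and 0 counts with adenosine and 0, 0 and 5 with DMSO. These 4 and Cox6c2, Ndufa11b, Ndufb4c and Ndufs6b were found only in the batch 1 table. The batch 2 table was filtered before deposit, and the smallest count summed over its libraries is 101. The filter on low counts passed 77 members in batch 1, Cox7a1 among them, and all 76 in batch 2.

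Changes were tested with edgeR's quasi-likelihood test over all genes, and a member is called higher or lower at a Benjamini-Hochberg adjusted p under 0.05. In batch 1, 7 members were higher and 12 lower with adenosine, 9.09% and 15.6% of those tested, where 19.6% of the 13842 genes tested were higher and 19.5% lower. In batch 2, 19 members were higher and 25 lower with adenosine, 25% and 32.9%, against 34.9% and 34.5% of all 13063 genes. With AMP, 13 members were higher and 30 lower, 17.1% and 39.5%, against 33.7% and 31.8% of all genes. The share of members called higher was thus below the share of all genes in each comparison, and the share called lower was below it in batch 1, near it with adenosine in batch 2 and above it with AMP. The median log2 fold change of the members was -0.04 in batch 1, -0.02 with adenosine in batch 2 and -0.12 with AMP, beside 0.03, 0.01 and 0.01 over all genes. Without single libraries the members' median ran from -0.11 to 0.004 in batch 1, from -0.05 to 0.06 with adenosine in batch 2 and from -0.15 to -0.09 with AMP. Its sign thus depended on single libraries in both adenosine comparisons. It depended on other settings too: with adenosine in batch 2 it was 0.07 under upper-quartile scaling and 0.04 among genes of at least 10 mean CPM. The AMP median was -0.05 and -0.06 in those settings, and on library totals it was above 0 in all 3 comparisons, as was that of all genes.

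Changes were small in most members. Apart from Cox6b2, the called rises ran up to 0.87 and the called falls down to -1.06 on the log2 scale. Of the members not called, 49 of 58 in batch 1, all 32 with adenosine in batch 2 and 32 of 33 with AMP had an approximate 95% interval within 1.5-fold of no change. The split into higher and lower depends on how the libraries were put on one scale. The counts were scaled by TMM (trimmed mean of M values), which sets the bulk of genes to no change. On library totals the median of all genes itself lay at 0.22 in batch 1 and at 0.32 with adenosine and 0.28 with AMP in batch 2, and the members lay at 0.15, 0.29 and 0.15. On that scale 22 members were higher and 4 lower in batch 1, 43 and 8 with adenosine in batch 2, and 31 and 9 with AMP. The shares of all genes called on library totals are not given. The library total counts here and below, of members, complexes and lists, therefore have no background beside them. Members made up 1.61 to 1.72% of counts with adenosine and 1.46 to 1.52% with DMSO in batch 1. In batch 2 they made up 1.43 to 1.68% with adenosine, 1.42 to 1.43% with AMP and 1.35 to 1.39% with DMSO. The members' mRNAs thus took a larger share of the reads in every treated library, while their median fold change lay below that of all genes on either scale. Every member called higher with TMM was also called higher on library totals, whereas 4 of 12 lower calls in batch 1, 8 of 25 with adenosine in batch 2 and 9 of 30 with AMP held there. Values below are TMM-scaled CPM unless another unit is named.

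**Figure D1:**
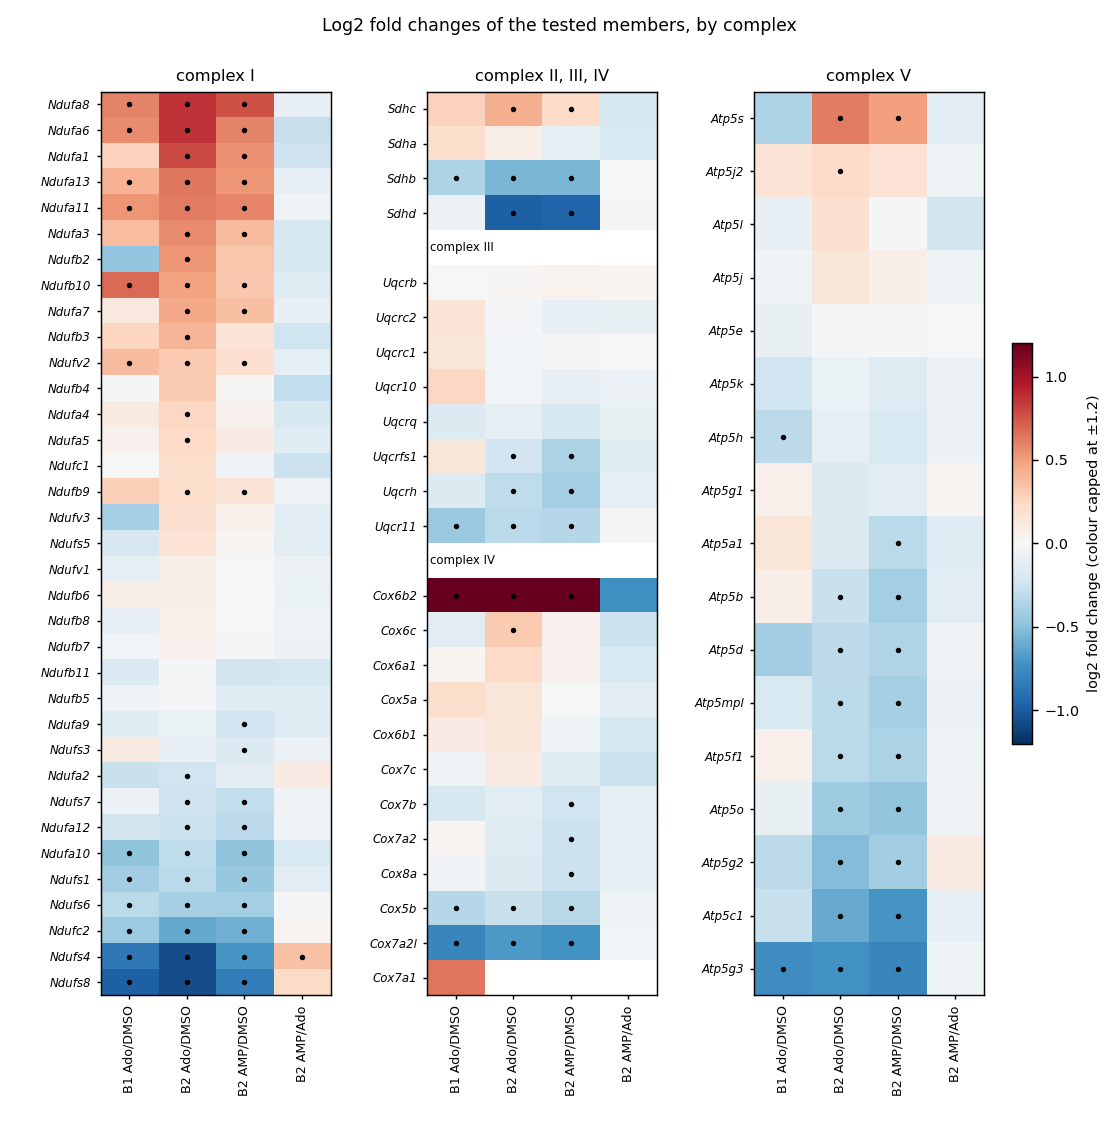
Log2 fold changes of 76 of the 77 members tested, by complex, one row per gene and one column per comparison (adenosine over DMSO in batch 1, adenosine over DMSO, AMP over DMSO and AMP over adenosine in batch 2). Red is higher and blue lower in the treatment named first, dots mark adjusted p under 0.05 and the colour is capped at 1.2 in either direction. Complex I holds rows of both colours, and complex V is mostly blue in batch 2.

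**Figure D2:**
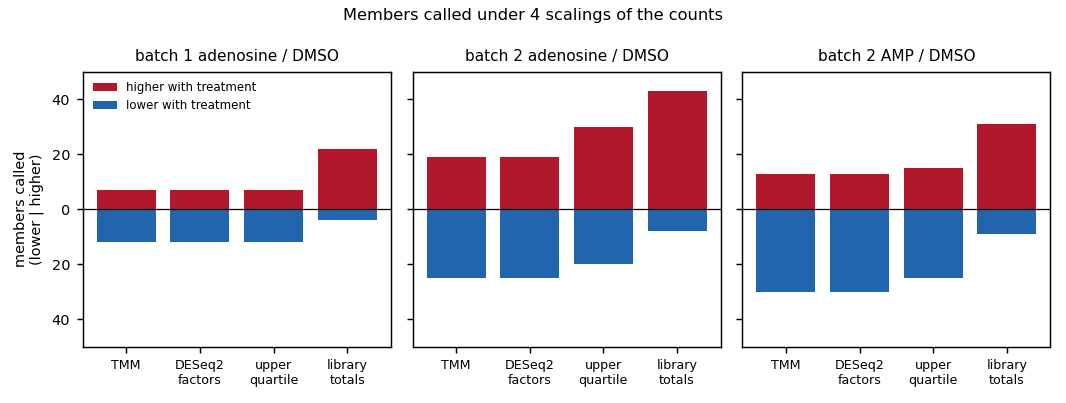
Number of members called higher (red, above the line) and lower (blue, below the line) in each of the 3 comparisons with DMSO, under 4 ways of scaling the counts. The TMM bars stand at 7 and 12, 19 and 25, and 13 and 30, and the library total bars at 22 and 4, 43 and 8, and 31 and 9.

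Complex I had calls in both directions, at shares close to those of all genes. With adenosine, 6 of its 36 tested subunits were higher and 6 lower in batch 1, 16.7% each way, and 14 were higher and 10 lower in batch 2, 38.9% and 27.8%. With AMP, 10 were higher and 11 lower, 27.8% and 30.6%. Accessory subunits, which surround the catalytic core and serve assembly and stability, make up 29 of the 36, Ndufa4 included by its name. In batch 1, 5 of them were higher and 4 lower (median -0.01), and 1 core subunit was higher and 2 lower (median -0.12). The accessory shares there were 17.2% and 13.8% and the core shares 14.3% and 28.6%, against 19.6% and 19.5% of all genes. In batch 2, 13 of 29 accessory subunits were higher and 6 lower with adenosine, and 9 were higher and 6 lower with AMP. These shares were 44.8% and 20.7% with adenosine, against 34.9% and 34.5% of all genes. They were 31% and 20.7% with AMP, against 33.7% and 31.8%. The median log2 fold change of the accessory subunits was 0.21 with adenosine and 0.03 with AMP in batch 2, and that of the core subunits was -0.17 and -0.27. Of the 7 nuclear core subunits, which carry the flavin and the iron-sulfur clusters, 1 was higher and 4 lower with adenosine and 1 higher and 5 lower with AMP. The core shares, of only 7 genes, were 14.3% and 57.1% with adenosine and 14.3% and 71.4% with AMP. The difference between core and accessory subunits was not tested. On library totals the complex I counts in batch 2 were 26 higher and 3 lower with adenosine and 20 and 4 with AMP. Among them, the core counts became 3 higher and 1 lower with adenosine and 2 and 1 with AMP. The core medians on that scale were 0.13 and 0.0007, and the accessory medians 0.51 and 0.30, beside 0.32 and 0.28 over all genes.

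The promoters of 6 members are shown, first 3 that rose and then 3 that fell. They come from the 7 higher and 11 lower members called alike in all 3 comparisons with DMSO. The 6 were chosen after their values were seen. Each line gives the RefSeq sequence of build GRCm38.p6 for 120 bases before the gene's start and the first 30 bases of the gene, read on the gene's own strand. The stretches are chr2:36049309-36049458 (minus strand), chr15:82354262-82354411 (minus), chr17:56717642-56717791 (plus), chr19:3912745-3912894 (minus), chr13:114388065-114388214 (minus) and chr17:83514304-83514453 (minus). Capitals mark the letters of NRF1, nuclear respiratory factor 1 (TGCGCA or GCATGCGC), of ETS factors such as GABPA (CCGGAAG) and of YY1 (AAGATGGC), on either strand.
Ndufa8: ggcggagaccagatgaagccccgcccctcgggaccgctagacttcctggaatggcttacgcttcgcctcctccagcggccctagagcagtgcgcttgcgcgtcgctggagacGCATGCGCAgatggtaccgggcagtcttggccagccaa
Ndufa6: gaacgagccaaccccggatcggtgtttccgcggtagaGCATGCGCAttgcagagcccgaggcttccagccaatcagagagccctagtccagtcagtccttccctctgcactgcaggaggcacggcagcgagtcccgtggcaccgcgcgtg
Ndufa11: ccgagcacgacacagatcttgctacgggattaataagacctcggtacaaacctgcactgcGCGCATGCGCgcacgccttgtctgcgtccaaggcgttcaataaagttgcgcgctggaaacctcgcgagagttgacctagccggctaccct
Ndufs8: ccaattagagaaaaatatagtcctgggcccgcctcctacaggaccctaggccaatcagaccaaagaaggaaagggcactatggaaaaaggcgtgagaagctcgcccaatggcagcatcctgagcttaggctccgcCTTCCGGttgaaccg
Ndufs4: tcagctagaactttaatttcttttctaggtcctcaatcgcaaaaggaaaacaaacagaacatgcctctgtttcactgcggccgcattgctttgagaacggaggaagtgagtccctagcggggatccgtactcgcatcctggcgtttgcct
Cox7a2l: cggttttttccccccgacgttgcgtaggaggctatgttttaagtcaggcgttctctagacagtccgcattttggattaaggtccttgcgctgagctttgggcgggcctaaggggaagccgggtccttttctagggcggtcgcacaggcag
The NRF1 letters stand in all 3 of the rising members shown and in none of the falling ones. This rests on which members were shown and does not extend to the rest. The 3 rising ones are the only members called higher with adenosine in batch 2 that hold GCATGCGC, in 3 of 15 wider windows. Among members called lower it stood in 3 of 20. TGCGCA stood in 4 of 15 and in 4 of 20 of these windows. Ndufs8 has the ETS letters, and Ndufs4 and Cox7a2l have none of the 4 in these stretches. A match is a description of the letters, not of a bound site.

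Ndufa8, an accessory subunit that faces the intermembrane space, had 188, 142 and 131 CPM with adenosine, against 99.6, 94.7 and 111 CPM with DMSO in batch 1. All 3 adenosine libraries lay above all 3 DMSO libraries, and the rise was 0.59 on the log2 scale (SE 0.14, adjusted p = 0.00607 by edgeR). In batch 2 Ndufa8 had 110.0, 114 and 134 CPM with adenosine and 121, 95.5 and 116 CPM with AMP, against 59.7, 71.2 and 65.3 CPM with DMSO. Both treated groups lay wholly above DMSO, with log2 fold changes of 0.87 (SE 0.10, adjusted p = 2.2e-06 by edgeR) and 0.76 (SE 0.10, adjusted p = 1.1e-05). No complex I subunit rose further in batch 2, although Ndufa6 lay within the error of Ndufa8 there.

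Ndufa6, an accessory subunit that binds the mitochondrial acyl carrier protein, had 135, 120.4 and 112 CPM with adenosine, against 69.8, 83.1 and 94.9 CPM with DMSO in batch 1. In batch 2 it had 97.4, 114 and 125 CPM with adenosine and 99.8, 84.9 and 93.7 CPM with AMP, against 54.2, 62.5 and 68.4 CPM with DMSO. No treated library of either batch lay below a DMSO library of its batch. The log2 fold changes were 0.57 (SE 0.14), 0.86 (SE 0.11) and 0.59 (SE 0.11), with adjusted p = 0.00602, 2.63e-06 and 0.000154 by edgeR. Ndufb10, another accessory subunit facing the intermembrane space, had the largest rise of complex I in batch 1, with 154, 174 and 165 CPM with adenosine, against 106, 103 and 98.8 CPM with DMSO. Its log2 fold change was 0.68 there (SE 0.11, adjusted p = 0.000455 by edgeR), 0.48 with adenosine in batch 2 and 0.32 with AMP, and its groups did not overlap in any of the 3 comparisons.

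Ndufa11, a membrane subunit, and Ndufa13, also known as GRIM-19, were called higher in all 3 comparisons too. Ndufa11 had 209, 157 and 155 CPM with adenosine, against 90.5, 115 and 155 CPM with DMSO in batch 1, where the groups overlapped at the lowest adenosine and the highest DMSO libraries. Its log2 fold change of 0.53 (adjusted p = 0.0359 by edgeR) was lost without any one of 5 libraries and was 0.34 (adjusted p = 0.201) without adenosine replicate 1 and 0.35 (adjusted p = 0.155) without DMSO replicate 1. In batch 2 it had 139, 141 and 159.6 CPM with adenosine and 166, 130.1 and 130.4 CPM with AMP, against 94.8, 91.3 and 98.5 CPM with DMSO, with no overlap and log2 fold changes of 0.63 and 0.58. Ndufa13 rose by 0.42, 0.63 and 0.53. Ndufa11 shares 70 exon bases with Vmac and Ndufa13 shares 375 with Tssk6 on the opposite strand. Ndufv2, a core subunit of the NADH-oxidising module, was the 1 core member called higher, by 0.38, 0.32 and 0.20.

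Further accessory subunits were called higher in batch 2 alone. Ndufa1 had 88.7, 93.4 and 91.5 CPM with adenosine and 73.4, 74.1 and 83.1 CPM with AMP, against 54.0, 48.7 and 54.8 CPM with DMSO. Both groups lay wholly above DMSO, by 0.80 (SE 0.08, adjusted p = 4.35e-07 by edgeR) and 0.55 (SE 0.08, adjusted p = 2.99e-05). In batch 1 it had 76.5, 81.0 and 72.1 CPM with adenosine, against 61.4, 64.4 and 63.4 CPM with DMSO, a log2 fold change of 0.28 that missed the threshold (adjusted p = 0.0843 by edgeR). Ndufa3 rose by 0.57 and 0.38 in batch 2, Ndufa7 by 0.46 and 0.36, and Ndufb9 by 0.21 and 0.17, with adenosine and AMP in that order. Ndufb3, Ndufa4, Ndufa5 and Ndufb2 were called higher with adenosine and not with AMP, and that difference did not pass the test between AMP and adenosine for any of them. Ndufa4 stands here by its name alone, since its protein is counted with cytochrome c oxidase.

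The largest falls in complex I were in Ndufs8 and Ndufs4. Ndufs8, a core subunit that carries iron-sulfur clusters on the way to ubiquinone, had 82.8, 92.7 and 66.7 CPM with adenosine, against 164, 144 and 171 CPM with DMSO in batch 1. In batch 2 it had 52.6, 61.7 and 66.3 CPM with adenosine and 76.02, 77.4 and 59.3 CPM with AMP, against 123, 127 and 128 CPM with DMSO. Every treated library lay below every DMSO library of its batch. The log2 fold changes were -0.98 (SE 0.14), -1.06 (SE 0.10) and -0.83 (SE 0.10), with adjusted p = 0.000165, 2.45e-07 and 4.62e-06 by edgeR.

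Ndufs4, an accessory subunit needed for a stable NADH-oxidising module and a gene behind Leigh syndrome, had 54.7, 59.1 and 60.3 CPM with adenosine, against 105, 111 and 98.9 CPM with DMSO in batch 1. In batch 2 it had 46.8, 47.3 and 46.2 CPM with adenosine and 60.5, 63.5 and 55.1 CPM with AMP, against 92.9, 98.7 and 101 CPM with DMSO. The adenosine, AMP and DMSO libraries of batch 2 formed 3 groups that did not overlap, with adenosine lowest. The log2 fold changes against DMSO were -0.85 (SE 0.12), -1.06 (SE 0.08) and -0.71 (SE 0.08), with adjusted p = 0.000148, 1.65e-08 and 1.59e-06 by edgeR. On library totals Ndufs8 and Ndufs4 were still called lower in all 3 comparisons.

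Smaller falls were called in all 3 comparisons for Ndufa10, Ndufs1, Ndufs6 and Ndufc2. Ndufs1, the largest core subunit, changed by -0.42 in batch 1 and by -0.33 and -0.46 with adenosine and AMP in batch 2. Ndufa10, an accessory subunit of the membrane arm, changed by -0.48, -0.30 and -0.48, and Ndufc2 by -0.43, -0.62 and -0.58. On library totals the batch 1 calls of all 4 were lost, and in batch 2 only those of Ndufc2 (-0.30 and -0.31) and the AMP call of Ndufa10 (-0.21) held, with Ndufs1 at -0.02 with adenosine and -0.19 with AMP. Ndufs7, a core subunit next to the ubiquinone site, was called lower in batch 2 alone, by -0.25 with adenosine and -0.29 with AMP, and not on library totals. Ndufb8, often used to stand for complex I, was not called in any comparison, with log2 fold changes of -0.10, 0.06 and 0.00.

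**Figure D3:**
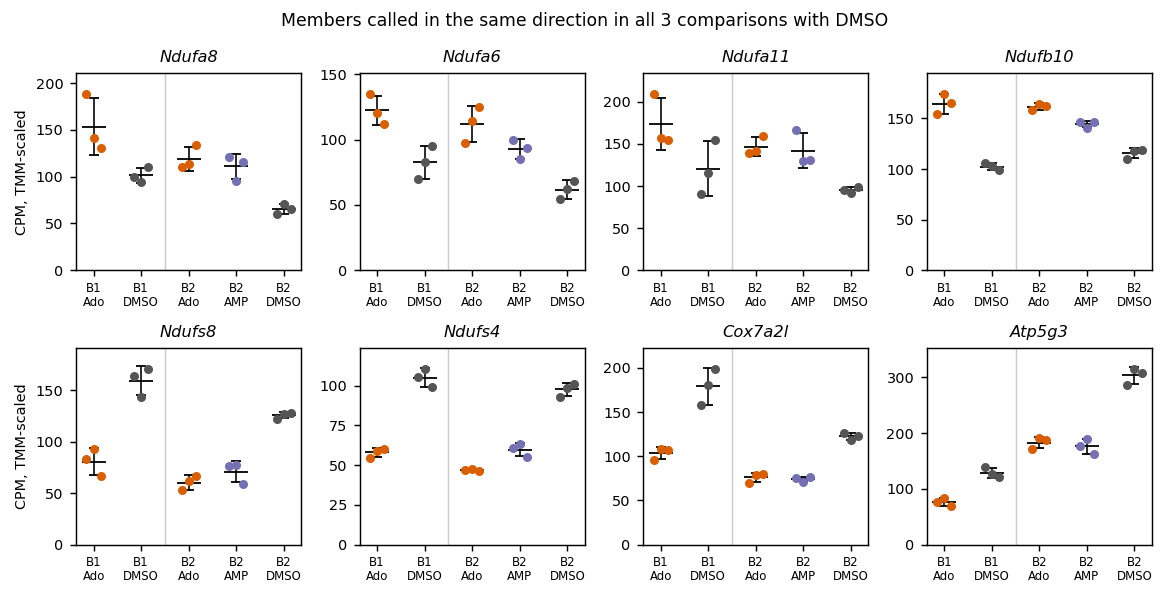
TMM-scaled CPM in every library for 8 members called in the same direction in all 3 comparisons with DMSO, with batch 1 left of the line and batch 2 right of it. Points are libraries and bars are mean ± SD (n = 3); Ndufa8, Ndufa6, Ndufa11 and Ndufb10 stand higher with treatment and Ndufs8, Ndufs4, Cox7a2l and Atp5g3 lower, with a touch of the groups only for Ndufa11 in batch 1.

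Complex II has 4 subunits, all nuclear, and in batch 2 they did not move together. Sdhd, which anchors the enzyme in the membrane and binds heme, had 48.4, 69.6 and 64.1 CPM with adenosine and 59.4, 70.5 and 54.1 CPM with AMP, against 99.6, 134 and 125 CPM with DMSO in batch 2. Both treated groups lay wholly below DMSO, by -0.98 (SE 0.14, adjusted p = 1.07e-05 by edgeR) and -0.96 (SE 0.14, adjusted p = 1.6e-05). In batch 1 Sdhd had 231, 239 and 247 CPM with adenosine, against 259, 247 and 246 CPM with DMSO, and was not called (-0.07, SE 0.10, adjusted p = 0.622 by edgeR). Its level per length in DMSO libraries also differed between the batches, 194 ± 6.04 FPKM in batch 1 and 92.2 ± 14.3 FPKM in batch 2 (SD, n = 3 each), in tables that were normalised separately.

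Sdhb, the iron-sulfur subunit, had 204, 177 and 190.2 CPM with adenosine, against 251, 239.9 and 249 CPM with DMSO in batch 1, and 155, 161 and 159 CPM with adenosine and 164, 151 and 162 CPM with AMP, against 229, 236 and 232 CPM with DMSO in batch 2. It was lower in every treated library, by -0.37 (adjusted p = 0.0161), -0.55 (adjusted p = 1.82e-06) and -0.55 (adjusted p = 2.56e-06) by edgeR. The batch 1 call was lost on library totals (adjusted p = 0.205 by edgeR), and the batch 2 calls were not. Sdhc, the other membrane anchor, went the other way in batch 2, by 0.43 with adenosine and 0.23 with AMP, and changed by 0.27 in batch 1 (adjusted p = 0.0503 by edgeR). Sdha, the flavoprotein, was not called in any comparison.

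In complex III no member was called higher with TMM scaling, where 19.6%, 34.9% and 33.7% of all genes were in the 3 comparisons with DMSO. Of its 8 subunits, 1 was lower in batch 1 and 3 with each compound in batch 2. These lower shares were 12.5%, 37.5% and 37.5%, against 19.5%, 34.5% and 31.8% of all genes. Uqcr11, a small subunit at the edge of the complex, was lower in all 3 comparisons, by -0.45, -0.33 and -0.35, although its batch 1 groups of 167, 129 and 111 CPM with adenosine and 181, 157 and 218 CPM with DMSO overlapped and the call was lost without 4 of the 6 libraries. Uqcrh, the hinge protein, was called lower in batch 2 with adenosine (-0.30) and AMP (-0.41). Uqcrfs1, the Rieske iron-sulfur protein, had 244, 247 and 256 CPM with adenosine and 242, 216 and 215 CPM with AMP, against 288, 302 and 287 CPM with DMSO in batch 2, falls of -0.23 and -0.38. On library totals none of these falls was called, and the Uqcrfs1 value with adenosine was 0.08. Uqcrc2, a core protein often used to stand for complex III, was not called in any comparison (0.15, -0.01 and -0.10), and on library totals 4 of the 8 subunits were called higher with adenosine in batch 2.

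Complex IV carried the largest rise and one of the steadiest falls. Cox6b2, an isoform of subunit 6b known from testis, was low but rose in every comparison. It had 120, 168 and 90 counts with adenosine, against 44, 41 and 37 with DMSO in batch 1, and 90, 91 and 95 counts with adenosine and 54, 47 and 49 with AMP, against 14, 11 and 6 with DMSO in batch 2. No groups overlapped, and the log2 fold changes were 1.55 (SE 0.35), 2.90 (SE 0.29) and 2.16 (SE 0.31), with adjusted p = 0.00392, 3.66e-07 and 1.66e-05 by edgeR. Per length it stayed far under its ubiquitous partner, at 6.24 FPKM for Cox6b2 and 708 FPKM for Cox6b1 with adenosine in batch 2. Cox6b1 was not called in any comparison (0.10, 0.15 and -0.06).

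Cox7a2l is also called SCAF1, and its protein is known for joining complex III and complex IV in supercomplexes. Neither supercomplexes nor the form of this protein in these cells was examined. Cox7a2l had 96.3, 108 and 107 CPM with adenosine, against 158, 181 and 199 CPM with DMSO in batch 1. In batch 2 it had 69.7, 79.1 and 79.5 CPM with adenosine and 75.8, 71.3 and 76.1 CPM with AMP, against 127, 119 and 123 CPM with DMSO. No treated library reached a DMSO library of its batch. The log2 fold changes were -0.79 (SE 0.12), -0.69 (SE 0.08) and -0.72 (SE 0.08), with adjusted p = 0.000337, 8.62e-07 and 7.31e-07 by edgeR. Its relative Cox7a2, a subunit of the oxidase itself, changed by 0.03 and -0.15 with adenosine, neither called, and by -0.26 with AMP (adjusted p = 0.00923 by edgeR).

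The other oxidase subunits moved little. Cox5b, a zinc-binding subunit, was called lower in all 3 comparisons, by -0.35, -0.27 and -0.33. Cox6c was higher with adenosine in batch 2 alone (0.31, adjusted p = 0.0232 by edgeR). Cox7b and Cox8a were called lower with AMP alone, by -0.24 and -0.25. The calls of Cox5b, Cox7a2, Cox7b and Cox8a were all lost on library totals. Cox5a, often used to stand for complex IV, was not called in any comparison (0.21, 0.15 and 0.01), nor was Cox6a1 (0.02, 0.23 and 0.06).

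In complex V the calls in batch 2 lay mostly on the low side. With adenosine 8 of 17 members were lower and 2 higher, with AMP 9 lower and 1 higher, and in batch 1 2 lower and none higher with TMM scaling. The lower shares were 47.1%, 52.9% and 11.8% in that order, against 34.5%, 31.8% and 19.5% of all genes. The higher shares were 11.8%, 5.88% and 0%, against 34.9%, 33.7% and 19.6%. On library totals the counts were 2 lower and 5 higher with adenosine, 2 lower and 3 higher with AMP, and 1 lower and 2 higher in batch 1. Of the 5 subunits of the catalytic F1 head, Atp5a1, Atp5b, Atp5c1, Atp5d and Atp5e, 3 were called lower with adenosine and 4 with AMP in batch 2, and none in batch 1. The batch 2 shares are 60% and 80% of only 5 genes, against 34.5% and 31.8% of all genes. On library totals, 1 of these 5 was higher and 1 lower with adenosine, and 0 higher and 1 lower with AMP. Atp5c1, the gamma subunit that turns inside the head, fell by -0.61 (SE 0.07, adjusted p = 1.13e-06) and -0.71 (SE 0.07, adjusted p = 3e-07 by edgeR) in batch 2 and changed by -0.27 in batch 1 (adjusted p = 0.0793). Atp5a1, the alpha subunit, had 1138, 1145 and 1222 CPM with adenosine and 1119.5, 1104 and 929.7 CPM with AMP, against 1310.0, 1360.3 and 1281 CPM with DMSO in batch 2. All treated libraries lay below DMSO, yet only the AMP change of -0.33 was called (adjusted p = 0.00196 by edgeR). In batch 1 Atp5a1 had 1343, 1308 and 1285 CPM with adenosine, against 1201, 1168 and 1179 CPM with DMSO, groups that lay apart the other way with a log2 fold change of 0.15 (adjusted p = 0.26 by edgeR).

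Atp5g1, Atp5g2 and Atp5g3 each code for the same mature subunit c, the ring that protons turn, and differ in the import sequences cleaved from it. Atp5g3 had 76.7, 84.1 and 69.4 CPM with adenosine, against 139, 126 and 121 CPM with DMSO in batch 1, and 172, 190.3 and 187 CPM with adenosine and 177, 189.7 and 162 CPM with AMP, against 287, 316 and 307 CPM with DMSO in batch 2. It was lower in every treated library, by -0.74 (SE 0.12), -0.73 (SE 0.08) and -0.78 (SE 0.08), with adjusted p = 0.000519, 4.68e-07 and 3.01e-07 by edgeR. Atp5g2 changed by -0.31 (adjusted p = 0.161) in batch 1 and was lower by -0.52 (adjusted p = 0.00135) and -0.41 (adjusted p = 0.00738 by edgeR) in batch 2, calls that were lost on library totals. Atp5g1 was not called in any comparison (0.06, -0.17 and -0.14). The make-up of the c-ring mRNAs differed between batches already in DMSO libraries, at 64.0, 140 and 58.5 FPKM for Atp5g1, Atp5g2 and Atp5g3 in batch 1 and 56.1, 157 and 138 FPKM in the separately normalised table of batch 2. Atp5s, a coupling factor B homologue named with the synthase, was the member of the complex called higher with both compounds in batch 2 (0.63 and 0.49), at 4.53 FPKM with DMSO.

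Most members called in batch 1 were called in the same direction in batch 2, as were most genes of the whole table. All 7 members higher in batch 1 were also higher with adenosine in batch 2, which is 100% of the batch 1 list and 36.8% of the batch 2 list. Of the 12 lower in batch 1, 11 were lower in batch 2, 91.7% and 44% of the lists. Over the 12607 genes tested in both batches, 88.2% of the genes higher in batch 1 were also higher in batch 2, and 90.5% of those lower were also lower. These shared genes were 50.4% and 53.7% of the batch 2 lists. The exception was Atp5h, subunit d of the stalk, at -0.31 in batch 1 and -0.12 in batch 2 (adjusted p = 0.198 by edgeR), and no member was called in opposite directions. Of the members called in batch 2, 16 of 19 higher and 22 of 25 lower had the same sign in batch 1, beside 90.4% and 89.6% of all such genes. The batches have separate DMSO libraries. All 18 members called alike in both batches were also called that way with AMP, which shares its DMSO libraries with batch 2 adenosine. Of all genes, 33.7% were higher and 31.8% lower with AMP, and their overlap with AMP calls is not given.

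**Figure D4:**
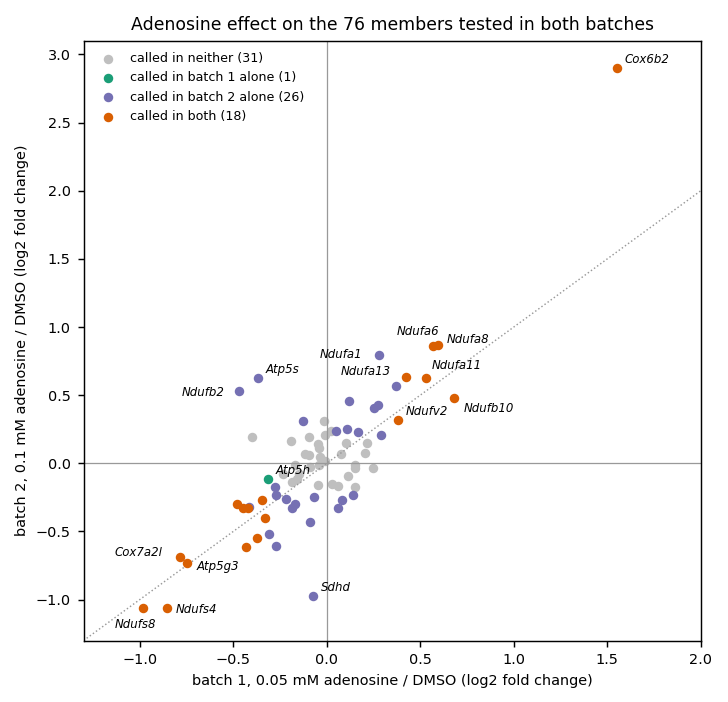
Log2 fold change with 0.1 mM adenosine in batch 2 (vertical axis) against that with 0.05 mM adenosine in batch 1 (horizontal axis), for the 76 members tested in both, coloured by where a member was called. Members called in both batches lie at lower left (11 genes) and upper right (7 genes), and Sdhd lies low in batch 2 and near 0 in batch 1.

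Many batch 1 calls depended on single libraries. Without 1 library at a time, 4 to 7 members were higher and 6 to 15 lower there. The count of higher members fell to 4 without DMSO replicate 1, DMSO replicate 2 or adenosine replicate 2. The count of lower members fell to 6 without DMSO replicate 1 or adenosine replicate 3 and to 7 without DMSO replicate 3 or adenosine replicate 2. Through all 14 alternatives run in batch 1, the calls of Ndufa6, Ndufa8, Ndufb10 and Cox6b2 as higher and of Ndufs4, Ndufs8, Cox7a2l and Atp5g3 as lower were kept; Cox6b2 entered 13 of them. Libraries of batch 1 also deviated along the GC content of the members. GC-rich members lay 0.14 above GC-poor ones in adenosine replicate 1 and 0.08 above in DMSO replicate 3 (mean log2 deviation from the group), and between 0.08 below and level with them in the remaining libraries. In batch 2 the same difference ran from -0.05 in AMP replicate 2 to 0.07 in AMP replicate 1. The part of these deviations in the calls was not tested. In batch 2, 15 of 19 higher calls and 8 of 25 lower calls with adenosine were kept in every alternative, and 20 of the 25 in every alternative other than library totals. With AMP, 9 of 13 higher calls and 9 of 30 lower calls were kept in every alternative, and 25 of the 30 in every alternative other than library totals. The calls lost without single libraries were, in batch 1, those of Ndufa11, Ndufa13, Ndufv2, Ndufc2, Ndufs1, Ndufs6, Sdhb, Uqcr11, Cox5b and Atp5h. With adenosine in batch 2 they included those of Ndufa2, Ndufa5, Ndufb2, Ndufs7, Cox5b, Cox6c and Atp5j2, and with AMP those of Ndufa3, Ndufb9, Ndufs3, Ndufv2, Cox7b, Cox8a and Atp5s.

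The adenosine effect itself was compared between the batches in one fit with an interaction term. Of 76 members, 4 had a higher effect in batch 2 and 2 a lower one, 5.26% and 2.63%, where 5.27% and 4.88% of all 13044 genes tested were called in those directions. The members with a higher effect in batch 2 were Ndufa1 (difference 0.52, SE 0.13, adjusted p = 0.0192 by edgeR), Ndufb2 (1.01, adjusted p = 0.0396), Ndufv3 (0.59, adjusted p = 0.0418) and Atp5s (1.00, adjusted p = 0.0392). Those with a lower effect were Sdhd (-0.90, SE 0.17, adjusted p = 0.0058 by edgeR) and Uqcrfs1 (-0.36, adjusted p = 0.049 by edgeR). The Sdhd call was kept in all 18 alternatives and the Uqcrfs1 call in 3. Ndufb2, a small accessory subunit, had 8.12, 10.5 and 8.10 CPM with adenosine, against 12.9, 10.6 and 13.5 CPM with DMSO in batch 1, and 11.7, 11.5 and 8.91 CPM with adenosine, against 8.28, 5.95 and 7.87 CPM with DMSO in batch 2. It lay below DMSO in all 3 batch 1 libraries and above it in all 3 batch 2 libraries, and it shares exon bases with Braf on the opposite strand. Ndufv3, a small flavoprotein subunit, had 37.9, 34.0 and 28.6 CPM with adenosine, against 42.0, 47.7 and 42.7 CPM with DMSO in batch 1, and 35.9, 36.9 and 36.4 CPM with adenosine, against 31.5, 32.9 and 31.5 CPM with DMSO in batch 2. Neither of its batch effects passed the test alone.

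**Figure D5:**
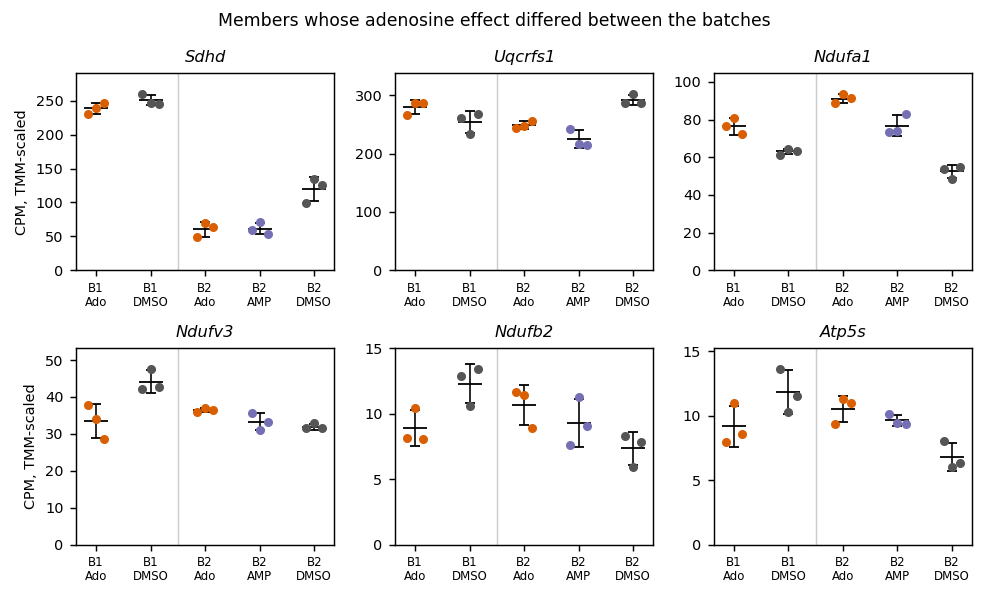
TMM-scaled CPM in every library for the 6 members whose adenosine effect differed between the batches, with batch 1 left of the line and batch 2 right of it. Points are libraries and bars are mean ± SD (n = 3); Sdhd stands low with adenosine and AMP in batch 2 and level in batch 1, and Ndufb2 stands below DMSO in batch 1 and above it in batch 2.

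AMP and adenosine were compared within batch 2, at 0.25 mM AMP and 0.1 mM adenosine, so the doses differ. AMP is adenosine with a phosphate on its ribose, which enzymes at the cell surface can remove. Of 76 members, 1 was higher with AMP and none lower by edgeR, where 4.52% of all genes were higher and 2% lower. At an unadjusted p under 0.05 there were 2 higher and 17 lower, and DESeq2 and limma each called 1 lower. Of the 75 members not called, 74 had an approximate 95% interval within 1.5-fold of no difference. The member called was Ndufs4, higher with AMP than with adenosine by 0.35 (SE 0.08, adjusted p = 0.0158 by edgeR) and lower than DMSO with both. That call was lost without adenosine replicate 3 (0.34, adjusted p = 0.0702), AMP replicate 1 (0.34, adjusted p = 0.0533) or AMP replicate 2 (0.31, adjusted p = 0.0707), and on library totals (0.31, adjusted p = 0.05002), all by edgeR. The median difference of the members was -0.10, beside -0.003 over all genes. Cox6b2 differed by -0.73 with groups apart and missed the threshold (adjusted p = 0.0862 by edgeR). Against the same DMSO libraries, 13 members were higher with both compounds, 24 lower with both, 6 higher and 1 lower with adenosine alone, and 6 lower with AMP alone. The like overlap is not given over all genes, of which 34.9% were higher and 34.5% lower with adenosine and 33.7% and 31.8% with AMP.

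Genes that work beside the subunits were followed in lists chosen by function. Of 18 genes of the citric acid cycle and pyruvate dehydrogenase, none was higher and 4 lower in batch 1, 3 were higher and 12 lower with adenosine in batch 2, and none was higher and 13 lower with AMP. On library totals these became 3 and 3, 6 and 7, and 4 and 8. Of all genes tested with TMM, 19.6% were higher and 19.5% lower in batch 1, and 34.9% and 34.5% with adenosine in batch 2. The AMP shares of all genes were 33.7% and 31.8%. The lower share of the citric acid cycle list in batch 1, 22.2%, was near that of all genes. Idh2, mitochondrial isocitrate dehydrogenase, fell by -1.02, -1.92 and -1.91, and Cs, citrate synthase, by -0.93, -1.39 and -1.31. Ogdh, the first enzyme of the oxoglutarate dehydrogenase complex, fell by -0.72, -0.97 and -0.98. Of the 4 tested carriers of nucleotides, phosphate and protons, 2 were lower in batch 1 and all 4 in both batch 2 comparisons, including Ucp2 (-1.93, -0.96 and -1.34) and the ATP/ADP exchanger Slc25a4 (-0.61, -0.69 and -0.83). The median log2 fold changes were -0.10, -0.29 and -0.35 for the citric acid cycle list and -0.43, -0.68 and -0.73 for the carriers, beside 0.03, 0.01 and 0.01 over all genes tested.

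Assembly factors of complexes I, II, III and IV had calls in both directions. For complex IV, 7 of 23 were higher and 3 lower in batch 1, 30.4% and 13% where all genes had 19.6% and 19.5%. In batch 2, 6 of 22 were higher with each compound, 27.3%, with 6 lower with adenosine and 3 with AMP, and these shares lay below those of all genes. Cox17, which carries copper to the oxidase, rose by 1.49, 2.33 and 1.76, and Surf1, needed for its heme, rose by 0.95, 1.29 and 1.2, while Cmc2 fell by -1.07, -1.41 and -1.61. For complex I, 4 of 15 assembly factors were higher and none lower in batch 1, against 3 higher and 5 lower with adenosine and 3 higher and 4 lower with AMP in batch 2. Its adenosine shares were 26.7% and 0% in batch 1 and 20% and 33.3% in batch 2, where all genes had 34.9% and 34.5%. The AMP shares of all genes were 33.7% and 31.8%. For complex II, 2 of 4 were higher in each comparison, among them Sdhaf1 (0.83, 1.30 and 0.95), which helps insert the iron-sulfur clusters of Sdhb. For complex III, 1, 3 and 2 of 6 were higher and none, 1 and 1 lower in the 3 comparisons. For complex V, none of 3 was higher, and 1 was lower in each batch 2 comparison. Of 13 genes of coenzyme Q synthesis, 3 were higher and 3 lower in batch 1, 4 and 5 with adenosine in batch 2, and 5 and 5 with AMP. On library totals these became 5 and 3, 7 and 3, and 7 and 2, those of complex IV assembly 9 and 2, 11 and 3, and 9 and 2, and those of complex I assembly 4 and 0, 7 and 1, and 5 and 0. The medians were 0.05, -0.04 and -0.01 for complex IV assembly and 0.02, -0.19 and -0.14 for complex I assembly. For coenzyme Q synthesis the batch 1 shares were 23.1% each way, near the 19.6% and 19.5% of all genes. Coq7, a hydroxylase of that pathway, fell by -1.78, -2.16 and -1.55, and Coq8a rose by 0.98, 1.75 and 1.39.

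Subunits outside the name rule gave a like mixture. Cox4i1, the ubiquitous subunit 4 of the oxidase, rose by 0.47 and 0.38 with adenosine and changed by 0.19 with AMP (adjusted p = 0.0625 by edgeR), and Atpif1, the inhibitor of ATP synthase, fell by -0.63, -0.47 and -0.49. Of that list of 6 tested, 2 were higher and 1 lower in batch 1, 2 and 2 with adenosine in batch 2, and none and 2 with AMP. Of the mitochondrially coded subunits, none of 10 was higher and 2 lower in batch 1, and of 13 in batch 2, 4 were higher and 3 lower with adenosine and 2 and 2 with AMP. Their shares were 0% and 20% in batch 1, beside 19.6% and 19.5% of all genes. They were 30.8% and 23.1% with adenosine in batch 2, beside 34.9% and 34.5%. On library totals the lists stood at 5 and 1, 4 and 0, and 4 and 0 for the outside subunits and at 2 and 1, 7 and 2, and 6 and 1 for the mitochondrially coded ones. mt-Cytb, cytochrome b of complex III, was lower in all 3 comparisons (-0.97, -0.84 and -0.57), and mt-Nd2, of complex I, was higher in batch 2 (0.76 and 0.62).

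Regulators of respiratory genes were the last list. Of 12 tested in batch 1, none was higher and 2 lower, and of 11 in batch 2, 2 were higher and 5 lower with adenosine and 2 and 4 with AMP. On library totals these became 3 and 2, 3 and 4, and 5 and 4. The TMM shares were 0% and 16.7% in batch 1, beside 19.6% and 19.5% of all genes. They were 18.2% and 45.5% with adenosine in batch 2, beside 34.9% and 34.5%. Ppargc1b, the coactivator PGC-1 beta, fell by -1.85, -3.56 and -1.95, and was higher with AMP than with adenosine by 1.61 (adjusted p = 0.00153 by edgeR). Esrra, a nuclear receptor that it activates, fell by -1.49 in batch 1 and changed by -0.51 and -0.22 in batch 2, neither called. In batch 2, Nrf1 fell by -0.68 and -0.69, Gabpa by -0.61 and -0.57, and Yy1 rose by 1.05 and 1.01. In batch 1 these 3 changed by -0.16, -0.09 and 0.22, none called. Tfam, which packs and transcribes mitochondrial DNA, was not called in any comparison.

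The promoters of the members hold the letters of these factors more often than promoters in general, as a description with no test. Windows of 250 bases before to 50 bases after the start were available for 64 of the tested members and for 27025 genes, and both strands were searched. TGCGCA stood in 17 member windows (26.6%), against 8.79% of all genes, and GCATGCGC, which overlaps TGCGCA when an A follows it, in 10 (15.6%), against 3.05%. CCGGAAG stood in 16 (25%), against 9.93%, and AAGATGGC in 9 (14.1%), against 3.19%. By the adenosine calls of batch 2, CCGGAAG stood in none of 15 windows of higher members, 5 of 20 of lower members and 11 of 28 of members not called. TGCGCA stood in 4, 4 and 9 of those windows, GCATGCGC in 3, 3 and 4, and AAGATGGC in 2, 3 and 4. Windows that lack the letters say nothing about whether a factor acts there.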

How the data were processed

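RNA was sequenced from 15 libraries, 3 in each of 5 groups. The raw counts per gene that the authors deposited were made with featureCounts 1.6.4 in batch 1, per the file headers, which record no strand option, and the submitters' processing notes name Trim Galore, STAR, Subread, DESeq2 and mm10. The deposited FPKM values were computed by the authors, with a scaling that is not given in the sources used here, and each batch has its own table. The batch 2 counts were deposited with low genes removed, and 43 of its 13106 lines name no gene (0.0589% of counts) and were left out. Of the 13063 batch 2 names, 13057 matched batch 1.

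Counts were scaled by TMM, filtered with filterByExpr and tested over all genes with edgeR 4.0.16 in R 4.3.3 (quasi-likelihood test, two-sided, Benjamini-Hochberg). The batch 1 fit held 6 libraries, the batch 2 fit all 9, and the interaction fit the 12 adenosine and DMSO libraries. The standard error is the log2 fold change divided by the square root of F. The 95% intervals take normal quantiles of that error, so they are approximate and can be narrower than the F test implies. The pipeline was tested on simulated data. Alternatives were other scalings and filters, DESeq2 1.42.0, limma 3.58.1 on log2(FPKM + 1), a replicate block and leaving out each library. Replicate pairs differed beyond sampling noise (chi-square per degree of freedom 3.54 to 34.4 over 15 pairs).

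The members and the lists of companion and marker genes were chosen with earlier results of these data known. Members named with values were, in each comparison, the called members of at least 10 mean CPM with the 4 largest rises and the 4 largest falls, stand-ins for each complex, isoform sets, members called in the interaction, and the highest and lowest per length in DMSO libraries; all others, and the 6 promoters printed, were chosen after their values were seen. Promoters are RefSeq sequences of GRCm38.p6, matched by gene identifier, and by symbol where no identifier matched. The values of 1 member are not reported here, although it stays in the counts.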

Additional observations from a re-analysis of the deposited data

Results flagged for a closer look

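The adenosine effect differed between the batches for 6 members by the interaction test, on the log2 scale as batch 2 minus batch 1. The differences were 0.52 for Ndufa1, 1.01 for Ndufb2, 0.59 for Ndufv3, -0.90 for Sdhd, -0.36 for Uqcrfs1 and 1.00 for Atp5s. The dose was 0.1 mM in batch 2 and 0.05 mM in batch 1, so dose and batch cannot be told apart. Sdhd was called in all 18 alternatives, with a difference of -0.79 on library totals (adjusted p = 0.0134 by edgeR), and Ndufa1 in all but the fit without batch 2 DMSO replicate 2 (adjusted p = 0.0501 by edgeR). Ndufv3 was called in 8 of 18 alternatives, Atp5s in 8 of 17, Ndufb2 in 7 of 17 and Uqcrfs1 in 3 of 18. Ndufb2 and Atp5s are low, at 1.30 and 4.53 FPKM with DMSO in batch 2, and Ndufb2 shares exon bases with Braf.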

How the results depend on the processing

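Library totals in place of TMM moved the counts of the 3 comparisons with DMSO. The median of all genes moved up with them, and the shares of all genes called on that scale are not given. In batch 1, 22 members were then higher and 4 lower (median 0.15), with adenosine in batch 2 43 and 8 (median 0.29), with AMP 31 and 9 (median 0.15), and between AMP and adenosine none was higher. The interaction then had 1 lower and a median of 0.18. Of the members called lower in batch 2, 9 of 25 with adenosine and 6 of 30 with AMP then had values above 0, without a call, among them Uqcrfs1 with adenosine (0.0785) and Cox7a2 (0.00928) and Cox8a (0.0108) with AMP. Upper-quartile scaling called 30 higher with adenosine in batch 2. DESeq2's Wald test and limma each called 1 lower between AMP and adenosine. The interaction had 1 lower with DESeq2 size factors or upper-quartile scaling, and 2 higher and 1 lower among genes of at least 10 mean CPM. With the replicate block, 6 members were lower in batch 1, and the interaction had 1 higher and 1 lower. The deviations of same-numbered libraries correlated at -0.02 to 0.09 in batch 1. In batch 2 they correlated at -0.05 to 0.39 (median 0.14, beside -0.09 for different numbers). Not every pair passed 0.1, so the numbers were not taken as pairs.

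Without single libraries, batch 1 had 4 to 7 higher and 6 to 15 lower, AMP against adenosine 0 to 2 higher and 0 to 5 lower (5 without adenosine replicate 1), and the interaction 0 to 3 higher and 1 to 5 lower (5 without batch 1 adenosine replicate 1). Among the values of members named by the rule under all alternatives, 81 lost a call, 44 gained one, and 3 called values changed sign. All 3 changes of sign were on library totals. The cause of the lost and gained calls was not tested. Cox6b2 rests on 6 to 168 counts per library, with standard errors of 0.29 to 0.35.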
